A study of Mus musculus with 9 samples.

Results

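The genes described here are those that make haemoglobin in the mouse, read in embryonic forebrain. They are the 8 genes, of 55401 in the count table, whose symbol is that of an adult globin (*Hba-a1*, *Hba-a2*, *Hbb-bs* and *Hbb-bt*), of an embryonic globin (*Hba-x*, *Hbb-y* and *Hbb-bh1*) or of *Alas2*, the enzyme that starts haem synthesis in red cell precursors. The rule that picks them uses symbols and no measured value, although it was set with earlier results of these data known. Poly(A) RNA of bulk forebrain from 9 female embryos was sequenced, and the table gives whole counts of reads per gene. The 5 WT embryos (Npas3+/+, labelled Npas+/+) carry the numbers 5, 15, 16, 41 and 43, and the 4 HET embryos (Npas3+/-, labelled Npas+/-) carry 5, 6, 7 and 24. HET embryos lack 1 copy of *Npas3*, which encodes a transcription factor, in all cells of the body, and WT embryos were their littermates. All embryos were on the C57BL/6J background and untreated. The age is given as a range, embryonic day 16 to 17, and not for each embryo, nor is the litter of an embryo given. A number that a WT and a HET embryo share was not treated as a pairing.

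Total counts were between 42640218 and 62830060 in WT and between 43011519 and 51588211 in HET embryos. Levels are given as CPM, read counts relative to the library size (set by edgeR's TMM method), and 3 counts, taken as the smallest level that can be read, equal 0.0477 to 0.0704 CPM. The targeted gene *Npas3* was at 36.2 ± 4.18 CPM across WT (SD, n = 5) and 29.5 ± 3.09 CPM across HET embryos (SD, n = 4), and the genotypes overlapped (29.7 to 40.8 against 27.8 to 34.1 CPM). Its log2 fold change was −0.30 (SE 0.10). The p of edgeR's quasi-likelihood test, adjusted by the Benjamini-Hochberg method over 17818 genes, was 0.877. The labels name astrocytes as the cell type. Against that, summed neuronal markers were at 6350 to 7470 CPM and summed astrocyte markers at 584 to 688 CPM, with *Gjb6* and *S100b* too low to be tested, so the samples are treated as whole tissue. *Ttr*, a choroid plexus gene, reached 2127 to 2631 CPM in WT embryos 15, 16 and 41 and 467 CPM in HET embryo 24, and stayed at 0.770 to 11.7 CPM elsewhere.

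Haemoglobin is built from alpha-type and beta-type globin chains, each of which holds a haem group. In the mouse embryo, the first red cells come from the yolk sac and use the embryonic genes *Hba-x*, *Hbb-bh1* and *Hbb-y*, and the red cells that the fetal liver then releases use the adult genes. Tissue that is not cleared of blood carries globin transcripts of the young red cells in its vessels, and low globin expression has also been described in neurons.

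The alpha-type genes lie on chromosome 11 of GRCm38, all on the plus strand, in the order *Hba-x* (chr11:32276400-32278116), *Hba-a1* (chr11:32283511-32284465) and *Hba-a2* (chr11:32296489-32297298). The beta-type genes lie on the minus strand of chromosome 7 in the order *Hbb-y* (chr7:103851749-103853216), *Hbb-bh1* (chr7:103841637-103843164), *Hbb-bs* (chr7:103826534-103828096) and *Hbb-bt* (chr7:103812524-103813996). In each cluster the embryonic genes precede the adult genes in the direction of transcription, and the start of the last adult gene lies 20089 bases (alpha) and 39220 bases (beta) from that of the first embryonic gene. *Alas2* lies apart, on the plus strand of the X chromosome (chrX:150547375-150570638). The first 90 coding bases of each globin gene, from the GENCODE transcripts on GRCm38, show how far a read can tell these genes apart. They are exonic, and capitals mark bases that differ from *Hba-a1* in the alpha-type and from *Hbb-bs* in the beta-type genes.
Hba-a1: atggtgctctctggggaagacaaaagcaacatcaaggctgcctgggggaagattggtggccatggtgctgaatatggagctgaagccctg
Hba-a2: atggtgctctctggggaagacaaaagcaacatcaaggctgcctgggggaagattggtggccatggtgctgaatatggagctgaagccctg
Hba-x: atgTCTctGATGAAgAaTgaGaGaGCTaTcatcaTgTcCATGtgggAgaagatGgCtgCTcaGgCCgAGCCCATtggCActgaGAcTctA
Hbb-bs: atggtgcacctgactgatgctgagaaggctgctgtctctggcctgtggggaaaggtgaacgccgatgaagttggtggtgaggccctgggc
Hbb-bt: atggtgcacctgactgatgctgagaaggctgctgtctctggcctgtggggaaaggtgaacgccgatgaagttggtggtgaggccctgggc
Hbb-y: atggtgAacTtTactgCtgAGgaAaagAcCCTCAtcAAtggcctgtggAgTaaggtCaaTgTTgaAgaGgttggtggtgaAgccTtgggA
Hbb-bh1: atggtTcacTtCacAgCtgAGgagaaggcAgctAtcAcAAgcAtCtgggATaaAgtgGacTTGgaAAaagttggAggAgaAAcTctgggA

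Within these 90 bases both adult pairs are the same, whereas *Hba-x* differs from *Hba-a1* at 44 bases, *Hbb-y* from *Hbb-bs* at 26 and *Hbb-bh1* from *Hbb-bs* at 29. Over the whole coding sequence, *Hba-a1* and *Hba-a2* differ at 1 of 426 bases, and *Hbb-bs* and *Hbb-bt* at 1 of 441. Identity to the adult gene is 61.7% for *Hba-x*, 74.4% for *Hbb-y* and 73.9% for *Hbb-bh1*. Of all runs of 50 exonic bases, 72.3% of those in *Hba-a1* and 89.3% of those in *Hba-a2* also occur in the other gene of the pair, and 53.2% of those in *Hbb-bs* and 58.3% of those in *Hbb-bt*. No run of this length in the 3 embryonic genes occurs in another gene. Counts within an adult pair are therefore uncertain, since the authors' handling of reads with several alignments is not given in the sources used here. Levels compared between the alpha, beta and embryonic genes are uncertain for the same reason, because the share of such runs differs between them, whereas a gene is compared between embryos under the same counting. For *Alas2*, 15.5% of the exonic bases are overlapped by *Apex2* and *Mir3620*.

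The 250 bases before the transcription start were searched on both strands for 5 motifs of erythroid and general promoters, in the 7 members with an entry in the RefSeq promoter table (GRCm38.p6), which holds 32851 promoters. Matches were counted motif by motif and could overlap. CACCC, bound by factors of the Klf family, was found in 7 of 7 members and in 52% of all promoters, and GATAA, the Gata factor motif, in 7 of 7 and 22.6%. TATAA was found in 6 of 7 members, all except *Hbb-y*, against 22.8% of all promoters. Its matches in *Alas2* begin 208 and 207 bases before the start, whereas each globin gene with the word has a match at 27 to 30 bases. Only the exact word was searched, so variants of it, in *Hbb-y* or elsewhere, were not counted. CCAAT was found in 5 of 7 against 33.8%, and CANNTG in 5 of 7 against 66.2%. The 7 promoters are not independent, since the genes of each adult pair carry matches at nearby positions. GATAA, for example, begins at −182 in *Hba-a1* and −185 in *Hba-a2*, and at −209 in *Hbb-bs* and −204 in *Hbb-bt*. A promoter from each class is shown, from 120 bases before the RefSeq start up to the first exon annotated by GENCODE. In both genes that exon begins upstream of the RefSeq start, so 117 and 111 bases are printed. Shown are *Hba-a2* (chr11:32296372-32296488, plus strand) for the adult and *Hbb-y* (chr7:103853217-103853327, minus strand) for the embryonic genes. Capitals mark any match to these motifs other than CANNTG. The GATAA matches of both genes lie outside the stretches shown.
Hba-a2 promoter: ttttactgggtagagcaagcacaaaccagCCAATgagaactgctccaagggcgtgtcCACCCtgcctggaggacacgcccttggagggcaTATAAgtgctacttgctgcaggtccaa
Hbb-y promoter: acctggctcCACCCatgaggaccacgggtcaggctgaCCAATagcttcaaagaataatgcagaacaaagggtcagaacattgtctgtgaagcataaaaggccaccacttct

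Globin transcripts were readily measured in all 9 forebrains. The 7 globin genes together held 0.0211% to 0.0559% of the counts of an embryo, and adult genes made up nearly all of them. Between genes, levels were compared as CPM per kilobase of exonic sequence. On this scale, and subject to the runs of bases that the adult pairs share, *Hbb-bs*, an adult beta globin gene, was highest, at 272 ± 68.9 (SD, n = 9), and was above *Hba-a1* in 9 of 9 embryos by 2.58 to 3.51 times. The alpha genes *Hba-a1* (91.2 ± 22.4) and *Hba-a2* (83.6 ± 19.3) did not differ beyond the spread between embryos. Within an embryo *Hba-a1* was the higher in 8 of 9, with a ratio of 0.997 to 1.18. *Hbb-bt*, the other adult beta globin gene, followed at 61.7 ± 16.3 and was below *Hba-a2* in 9 of 9 embryos. *Alas2* was at 5.51 ± 1.63 and *Hbb-y* at 4.62 ± 5.54, an order that held in 8 of 9 embryos and was turned in WT embryo 5. *Hba-x*, the embryonic alpha-type gene, was at 0.846 ± 0.651, and *Hbb-bh1* was lowest at 0.222 ± 0.143 CPM per kilobase.

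1 WT embryo stood apart from all others in these genes, and results are given with and without it. In WT embryo 5, each of the 4 adult globin genes and *Alas2* was lower than in any other embryo, and the embryonic genes *Hbb-y* and *Hba-x* were higher than in any other embryo. *Hbb-bs* was at 104 CPM in it and at 179 to 295 CPM in the other 8 embryos, and *Hbb-y* was at 12.1 CPM against 0.889 to 2.94 CPM. Its library was the smallest, at 42640218 counts, and its *Ttr* level the lowest, at 0.770 CPM. Their part in these values was not tested.

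**Figure D1:**
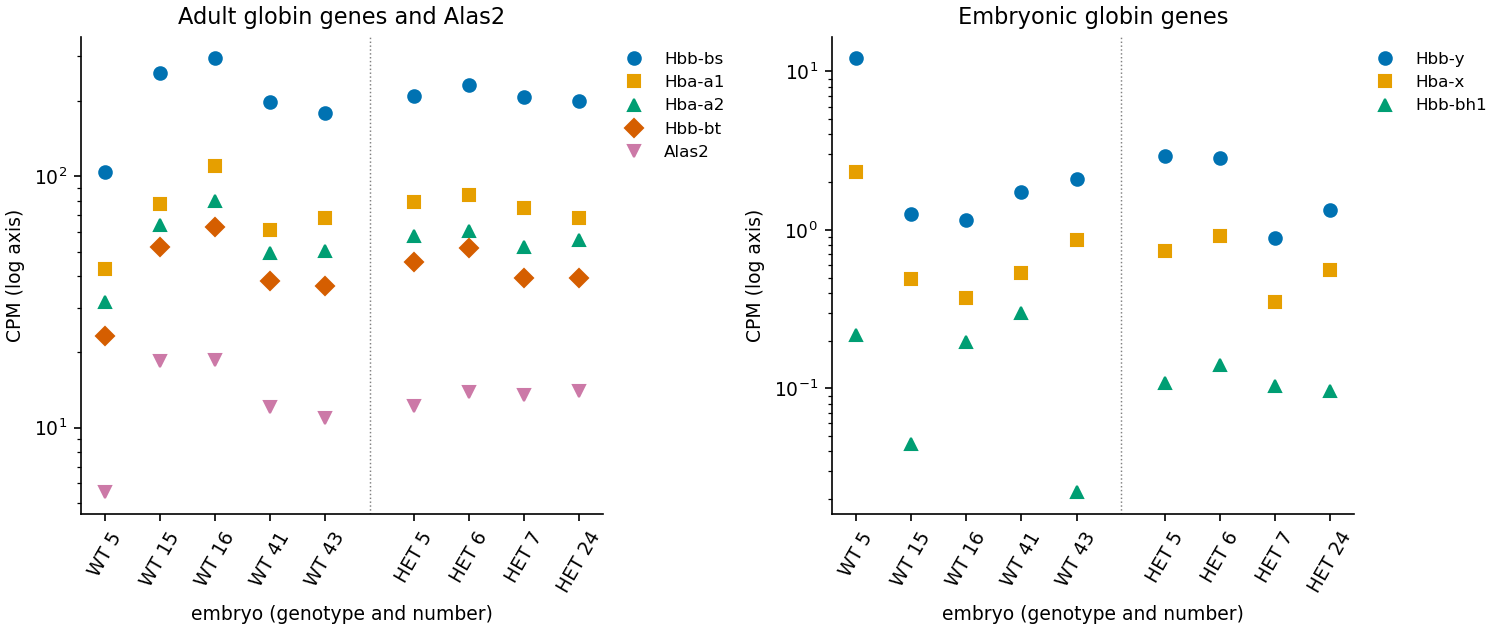
Level of each haemoglobin gene and of *Alas2* in CPM, on log axes, for each of the 9 embryos (1 point per embryo and gene), with WT on the left and HET on the right of the dotted line. In WT embryo 5 the adult genes and *Alas2* are at their lowest (*Hbb-bs* 104 CPM) and *Hbb-y* and *Hba-x* at their highest (12.1 and 2.33 CPM), while HET embryos lie within the WT range for the adult genes and *Alas2*.

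*Hbb-bs* was at 104, 258, 295, 197 and 179 CPM in WT embryos 5, 15, 16, 41 and 43. It was at 209, 230, 207 and 199 CPM in HET embryos 5, 6, 7 and 24. The HET embryos thus lay close together inside the WT range, with WT embryos 5, 41 and 43 below and WT embryos 15 and 16 above all of them. The means were 207 ± 73.8 CPM (SD, n = 5) and 212 ± 13.1 CPM (SD, n = 4), a log2 fold change of 0.03 (SE 0.23, 95% interval −0.48 to 0.55).

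*Hbb-bt*, its near-identical neighbour, was at 23.2, 52.6, 62.9, 38.4 and 36.5 CPM in the same order of WT embryos. In HET embryos it was at 45.7, 52.0, 39.5 and 39.4 CPM. WT embryo 5 was again the lowest and WT embryo 16 the highest. The log2 fold change was 0.05 (SE 0.23, 95% interval −0.47 to 0.56). *Hbb-bs* held 81.6% to 84% of the counts of the pair in all 9 embryos, WT embryo 5 included at 81.8%.

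*Hba-a1* was at 42.6, 77.7, 109.9, 61.1 and 68.2 CPM in WT and at 78.7, 84.4, 75.1 and 68.5 CPM in HET embryos. *Hba-a2*, which encodes nearly the same alpha chain, was at 31.7, 64.0, 79.5, 49.5 and 50.5 CPM in WT and at 57.9, 60.7, 52.3 and 55.9 CPM in HET embryos. Both genes were lowest in WT embryo 5 and highest in WT embryo 16, with the HET embryos between. The log2 fold changes were 0.09 (SE 0.21, 95% interval −0.37 to 0.56) for *Hba-a1* and 0.04 (SE 0.20, 95% interval −0.41 to 0.49) for *Hba-a2*. *Hba-a1* held 54.8% to 58.9% of the counts of the pair, and the alpha genes held 31.3% to 36.9% of all adult globin counts, with the highest share in WT embryo 5.

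Summed over the 4 adult genes, the level was 202, 453, 547, 346 and 334 CPM in WT and 392, 427, 374 and 363 CPM in HET embryos. The mean was 376 ± 131 CPM across WT (SD, n = 5) and 389 ± 28.0 CPM across HET embryos (SD, n = 4), and 420 ± 100 CPM (SD, n = 4) in WT without embryo 5. In bulk tissue, fewer red cells and less globin RNA per red cell cannot be told apart.

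*Alas2* makes the first haem precursor in erythroid cells and is thus used by the same cells as the globin genes. It was at 5.53, 18.4, 18.6, 12.1 and 10.9 CPM in WT and at 12.2, 13.9, 13.5 and 14.0 CPM in HET embryos. WT embryo 5 was lowest, as for the adult globins, and WT embryos 15 and 16 were highest. Per 100 adult globin counts there were 2.75 *Alas2* counts in WT embryo 5 and 3.12 to 4.06 in the others. The log2 fold change between genotypes was 0.03 (SE 0.28, 95% interval −0.59 to 0.65).

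*Hbb-y*, the embryonic beta-type globin that yolk-sac-derived red cells carry longest, was at 12.1, 1.26, 1.15, 1.73 and 2.10 CPM in WT embryos. In HET embryos it was at 2.94, 2.84, 0.889 and 1.32 CPM. WT embryo 5 was 4.1 times the highest of the other 8 embryos, with 502 counts, and the other WT embryos lay inside the HET range. The WT mean was 3.66 ± 4.72 CPM (SD, n = 5), or 1.56 ± 0.438 CPM (SD, n = 4) without embryo 5, against 2.0 ± 1.05 CPM across HET embryos (SD, n = 4). The log2 fold change was −0.87 (SE 0.72, 95% interval −2.45 to 0.71).

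*Hba-x*, the alpha-type partner of the embryonic beta-type chains, was at 2.33, 0.487, 0.370, 0.536 and 0.861 CPM in WT embryos. It was at 0.736, 0.908, 0.351 and 0.557 CPM in HET embryos. WT embryo 5 was 2.57 times the highest other embryo, and the other embryos of both genotypes overlapped. The log2 fold change was −0.51 (SE 0.52, 95% interval −1.67 to 0.64). *Hba-x* held 16.2% of the summed counts of *Hba-x* and *Hbb-y* in WT embryo 5 (95% Wilson interval 13.5% to 19.4%) and 20% to 29.6% in the other embryos.

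*Hbb-bh1*, the embryonic beta-type gene that is switched down first, had 9, 2, 9, 19 and 1 counts in WT and 5, 6, 5 and 5 counts in HET embryos. Counts this low cannot show whether it moved with *Hbb-y* and *Hba-x*. WT embryo 5, at 0.216 CPM, was within the 0.0221 to 0.299 CPM of the other embryos, and the highest count was in WT embryo 41. The counts of WT embryos 15 and 43 were under the 3 that were taken as readable. *Hbb-bh1* did not pass the filter on low counts and was not tested in the comparison of genotypes.

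Embryonic genes made up 6.77% of the globin counts of WT embryo 5 (608 of 8986 counts, 95% Wilson interval 6.27% to 7.3%). In WT embryos 15, 16, 41 and 43 this share was 0.394%, 0.313%, 0.737% and 0.884%. In HET embryos 5, 6, 7 and 24 it was 0.959%, 0.902%, 0.357% and 0.542%. The intervals, which cover counting error only, reached no higher than 1.11% in any embryo other than WT embryo 5, whose share was 7.06 times the highest other share. Both parts of the ratio differed in it, since its summed embryonic level was 14.6 CPM against 1.34 to 3.89 CPM and its summed adult level 202 CPM against 334 to 547 CPM. Weighting by exonic length gave 7.55% against 0.347% to 1.07%.

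The mean embryonic share was 1.82 ± 2.78% across WT (SD, n = 5) and 0.690 ± 0.288% across HET embryos (SD, n = 4). Without WT embryo 5 the WT mean was 0.582 ± 0.272% (SD, n = 4). The difference, HET minus WT, was −1.13 percentage points with all embryos and 0.108 percentage points without WT embryo 5, so that its sign rested on that embryo. As sums over chosen genes, these values were given no test.

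**Figure D2:**
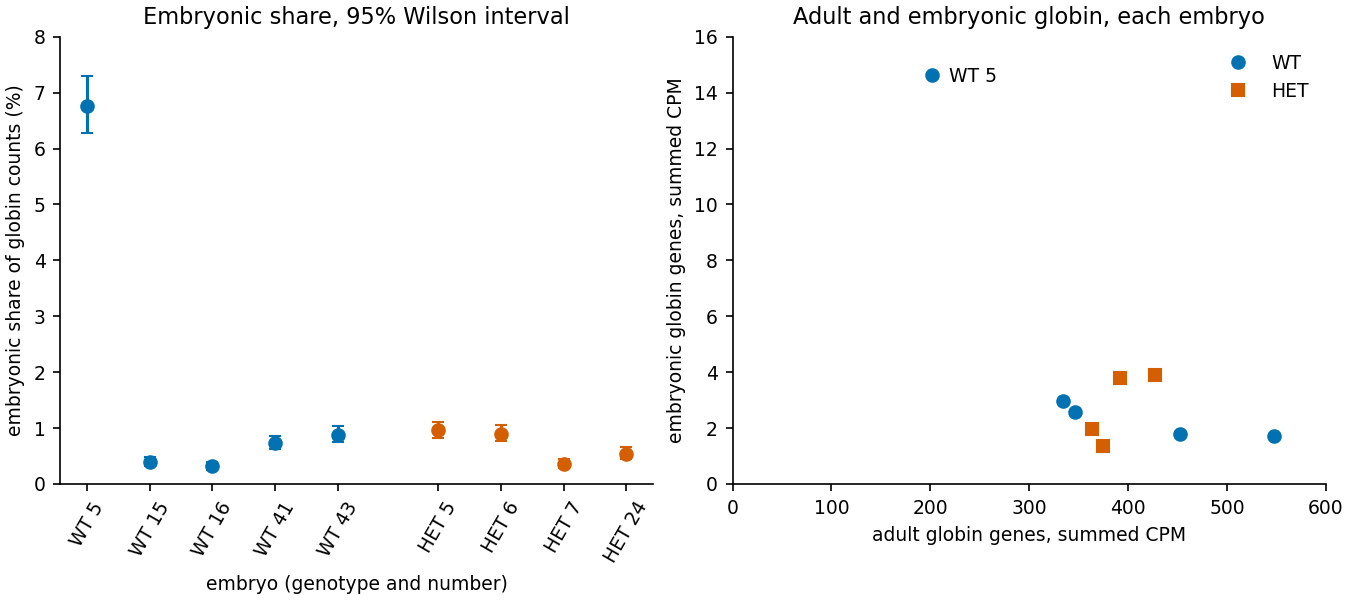
Left, percent of globin counts from the embryonic genes in each embryo (points) with 95% Wilson intervals (bars), which cover counting error only; right, summed CPM of the embryonic genes against summed CPM of the adult genes, 1 point per embryo. WT embryo 5 is at 6.77%, with 14.6 CPM embryonic and 202 CPM adult globin, and the other 8 embryos are between 0.313% and 0.959%.

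The comparison of genotypes asked whether loss of 1 copy of *Npas3* was accompanied by a change in these genes. None of the 7 tested members passed an adjusted p of 0.05 in edgeR's quasi-likelihood test (Benjamini-Hochberg over all tested genes), in which 0.14% of all tested genes were called, 0.0281% higher and 0.112% lower in HET embryos. The adjusted p was 0.911 to 0.99. By DESeq2 and by limma-voom 0 members were called as well. At an unadjusted p under 0.05 in edgeR, 0 of 7 members passed, against 5.42% of all tested genes. In 0 of the 8 members did the genotypes fail to overlap, against 1.85% of all tested genes. For the adult genes and *Alas2* the 95% intervals, given above, reach from −0.59 to 0.65 on the log2 scale. For *Hbb-y* and *Hba-x* they are wider and reach down to −2.45 and −1.67, so these intervals include falls by more than 1 log2 unit.

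Leaving out WT embryo 5 turned the sign of the fold change in all 7 tested members. Without it, the log2 fold changes were −0.05 for *Hba-a1*, −0.10 for *Hba-a2*, −0.13 for *Hbb-bs*, −0.11 for *Hbb-bt* and −0.16 for *Alas2*. Those of the embryonic genes became 0.17 (SE 0.33) for *Hba-x* and 0.35 (SE 0.37) for *Hbb-y*, with smaller standard errors than with all embryos. No member was called in that fit either, with adjusted p-values of 0.801 to 0.952 in edgeR.

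**Figure D3:**
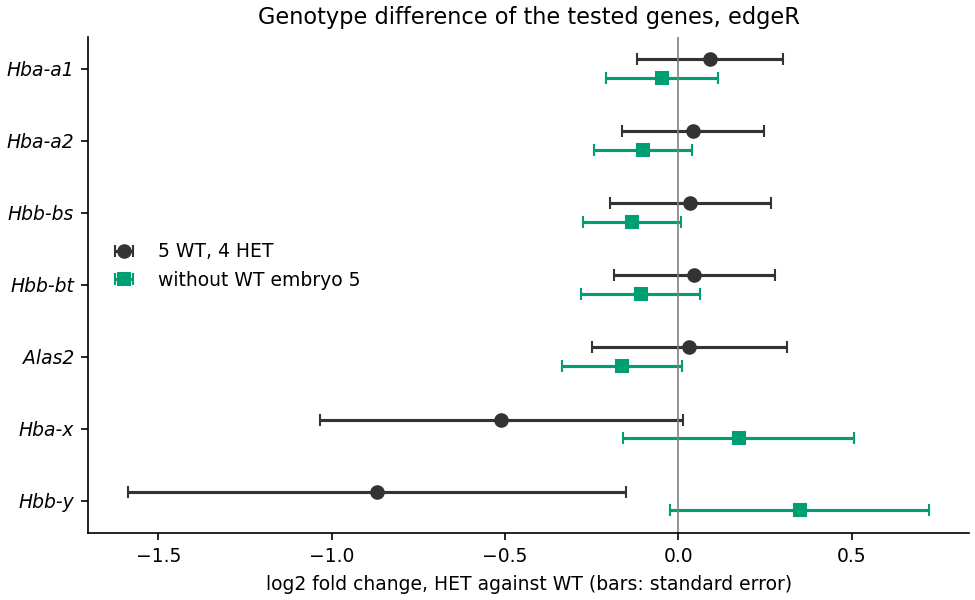
Log2 fold change of each tested member, HET against WT, from edgeR (points) with its standard error (bars), with all 9 embryos (circles) and without WT embryo 5 (squares). Each of the 7 genes lies on the other side of 0 without that embryo, for example *Hbb-y* at −0.87 and 0.35, and none was called in either fit.

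Choroid plexus RNA differed between the embryos, and the fold changes of the members were larger in fits that took account of it. Summed over 8 marker genes it was 18.3 to 2880 CPM in WT and 27.8 to 534 CPM in HET embryos, and 40.2 CPM in WT embryo 5. None of the 8 markers was called between genotypes by edgeR, although 5 had an unadjusted p under 0.05 and the list had a median log2 fold change of −2.57. When edgeR's model also held a term for choroid plexus RNA (a score over the 8 marker genes of that tissue), the log2 fold changes were 0.26 to 0.41 for the adult globin genes and *Alas2*, −0.89 for *Hba-x* and −1.33 for *Hbb-y*. The last 2 had unadjusted p-values of 0.0341 and 0.0213 and adjusted p-values of 0.881. Among the embryos with *Ttr* under 100 CPM, which are WT embryos 5 and 43 and HET embryos 5, 6 and 7, they were 0.47 to 0.68 for the adult genes and *Alas2*, −1.26 for *Hba-x* and −1.67 for *Hbb-y*. There the unadjusted p-values were 0.0201 to 0.0549 and the adjusted p-values of edgeR 0.999, and WT embryo 5 was 1 of the 2 WT embryos. WT embryos 5 and 43 also had the lowest choroid plexus scores of all embryos (0.879 and 0.732). No fit with the score left out WT embryo 5. The part of choroid plexus RNA in the globin values was not tested further.

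Compared gene by gene with the median of the other 8 embryos on the scale of log2(CPM + 0.5), WT embryo 5 deviated in the haemoglobin genes more than in most genes. The embryo was singled out by its levels of these same genes, so their ranks are descriptions only. *Hbb-y* deviated by 2.64, the 2nd highest of 17818 tested genes, and *Hba-x* by 1.44, the 20th highest. In the other direction *Alas2* deviated by −1.23 (the 47th lowest), *Hbb-bs* by −0.998 (the 94th lowest), *Hbb-bt* by −0.86, *Hba-a2* by −0.84 and *Hba-a1* by −0.83. The gene above *Hbb-y*, the pseudogene *Rps7-ps3*, named after its values were seen, was at 30.9 CPM in this embryo and at up to 35 CPM in others. In total, 0.898% of tested genes deviated by more than 1 in WT embryo 5 and 0.269% to 1.8% in each of the others, so this embryo was not unusual over all genes. The choroid plexus list also deviated in it, with a median of −1.24 over 8 genes, *Ttr* at −5.89 being the lowest of all tested genes.

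On this scale, other genes of the red cell deviated less in this embryo. Of 29 further erythroid genes, 28 were in the table (*Ahsp* was not analysed here) and 18 were tested. In WT embryo 5, 6 of the 18 were above and 12 below the median of the others, and the median deviation was −0.08 against −0.01 over all tested genes. Several of the 18 lay near or under the 0.5 CPM that the scale adds, which shrinks their deviations. *Trim10*, chosen after its values were seen, was at 0.0962 CPM in this embryo against 0.186 to 0.619 CPM, and deviated by −0.36. The list therefore cannot show whether red cell genes changed less than the globin genes. *Slc4a1*, the anion exchanger of the red cell membrane, was at 1.68 CPM against 0.971 to 2.41 CPM in the other embryos. It was chosen after its values were seen. The erythroid genes with the highest levels, *Prdx2*, *Epb41* and *Xpo7*, are also expressed in brain cells and were at 641 to 885, 233 to 290 and 148 to 175 CPM over all embryos. The erythroid regulators *Gata1* (1 to 8 counts) and *Gfi1b* (0 to 2 counts) were near the limit of reading. *Klf1* (12 to 32 counts), *Nfe2* (7 to 17) and *Tal1* (52 to 94), named after their values were seen, passed the filter. *Icam4* was at 0 in all embryos, which allows up to 0.0477 to 0.0704 CPM.

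Between genotypes, 0 of the 18 erythroid genes were called by edgeR (0.14% of all tested genes), 1 had an unadjusted p under 0.05 and 10 had a lower fold change in HET embryos. The 1 gene was *Ermap*, which encodes a red cell membrane protein, chosen after its values were seen. It was at 0.481 CPM across WT and 0.329 CPM across HET embryos, and its adjusted p was 0.907 in edgeR. DESeq2 and limma-voom called 0 genes of the list as well. The median log2 fold change of the list was −0.01, against −0.005 over all tested genes.

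The other steps of haem synthesis were measured well and differed little. Of 12 tested genes of the pathway, 0 were called, 0 had an unadjusted p under 0.05 in edgeR, 9 had a lower fold change in HET embryos, and the median was −0.05. *Alas1*, the form of the first enzyme that most tissues use, was at 38.7 ± 3.15 CPM across WT (SD, n = 5) and 36.0 ± 1.28 CPM across HET embryos (SD, n = 4). *Fech*, which inserts iron into the ring, was at 39.8 ± 3.49 and 36.3 ± 1.23 CPM, and *Tmem14c*, a mitochondrial transporter of haem precursors, at 38.3 ± 3.63 and 38.0 ± 2.48 CPM. In WT embryo 5, 5 of the 12 genes were above and 7 below the others' median, with a median deviation of −0.01, whereas *Alas2* deviated by −1.23.

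Of 16 genes of haem breakdown and iron handling 14 were tested. By edgeR 0 were called, 1 had an unadjusted p under 0.05, 11 had a lower fold change, and the median was −0.07. The ferritin chain genes *Ftl1* (442 ± 38.5 CPM in WT, 414 ± 24 CPM in HET) and *Fth1* (282 ± 34.1 and 295 ± 15.7 CPM) were the highest, followed by *Ireb2*, an iron sensor (265 ± 12.6 and 262 ± 10.1 CPM). *Slc40a1*, the iron exporter ferroportin, chosen after its values were seen, had an unadjusted p of 0.039 and an adjusted p of 0.911 in edgeR.

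Of 10 regulators of globin genes 9 were tested, 0 were called by edgeR, 1 (*Zbtb7a*, named after its values were seen) had an unadjusted p under 0.05, and 3 had a lower fold change in HET embryos, with a median of 0.05. *Bcl11a*, a repressor of embryonic globin genes that neurons also express, was at 338 ± 22.6 CPM across WT (SD, n = 5) and 350 ± 24 CPM across HET embryos (SD, n = 4). *Sox6*, which acts with it in red cells, was at 125 ± 31.3 and 133 ± 22.0 CPM, and *Ldb1*, a cofactor that links enhancers to promoters, at 305 ± 26.6 and 309 ± 15.4 CPM. In WT embryo 5, 8 of the 9 regulators were above the others' median, with a median deviation of 0.17. In bulk tissue the levels of these regulators cannot be assigned to red cells, and their part in the globin values was not tested. *Bcl11a* was at 372 CPM in it against 310 to 374 CPM, and *Sox6* at 163 CPM against 87.5 to 159 CPM.

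Globins outside the rule were read as well. *Cygb*, which encodes cytoglobin of fibroblast-like and other cells, was at 19.9 ± 1.76 CPM across WT (SD, n = 5) and 22.3 ± 3.57 CPM across HET embryos (SD, n = 4). *Ngb*, which encodes the neuronal globin neuroglobin, was at 0.618 ± 0.265 and 0.938 ± 0.455 CPM, and *Hbq1b*, a theta-type gene of the alpha cluster, at 0.554 ± 0.135 and 0.482 ± 0.123 CPM. Of the 4 tested genes of this list 0 were called and 0 had an unadjusted p under 0.05 in edgeR, with adjusted p-values of 0.911 to 0.933. *Hbb-bh2* and *Hbb-bh0*, further genes of the beta cluster, had 1 count each over all 9 embryos.

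Markers of other cells of blood and vessels were read for whole lists, and their part in the globin values was not tested. Of 10 endothelial genes 10 were tested, 0 were called, 2 had an unadjusted p under 0.05 (*Kdr* and *Pecam1*, each with an adjusted p over 0.9 in edgeR) and 8 had a lower fold change. Their summed level was 137 to 179 CPM in WT, with WT embryo 5 lowest, and 130 to 145 CPM in HET embryos. The 4 tested platelet genes summed with the other 4 of their list to 2.61 to 4.18 CPM in WT and 2.77 to 3.84 CPM in HET embryos, and WT embryo 5 was at 2.93 CPM. Of 8 neutrophil genes none passed the filter, *Ly6g* was at 0 in all embryos, and the sum was 0.289 to 0.848 CPM, lowest in WT embryo 5. Of 8 microglial genes 8 were tested, and 0 were called by edgeR or had an unadjusted p under 0.05, with sums of 61.9 to 80.1 CPM in WT and 63.3 to 78.8 CPM in HET embryos and 65.2 CPM in WT embryo 5.

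**Figure D4:**
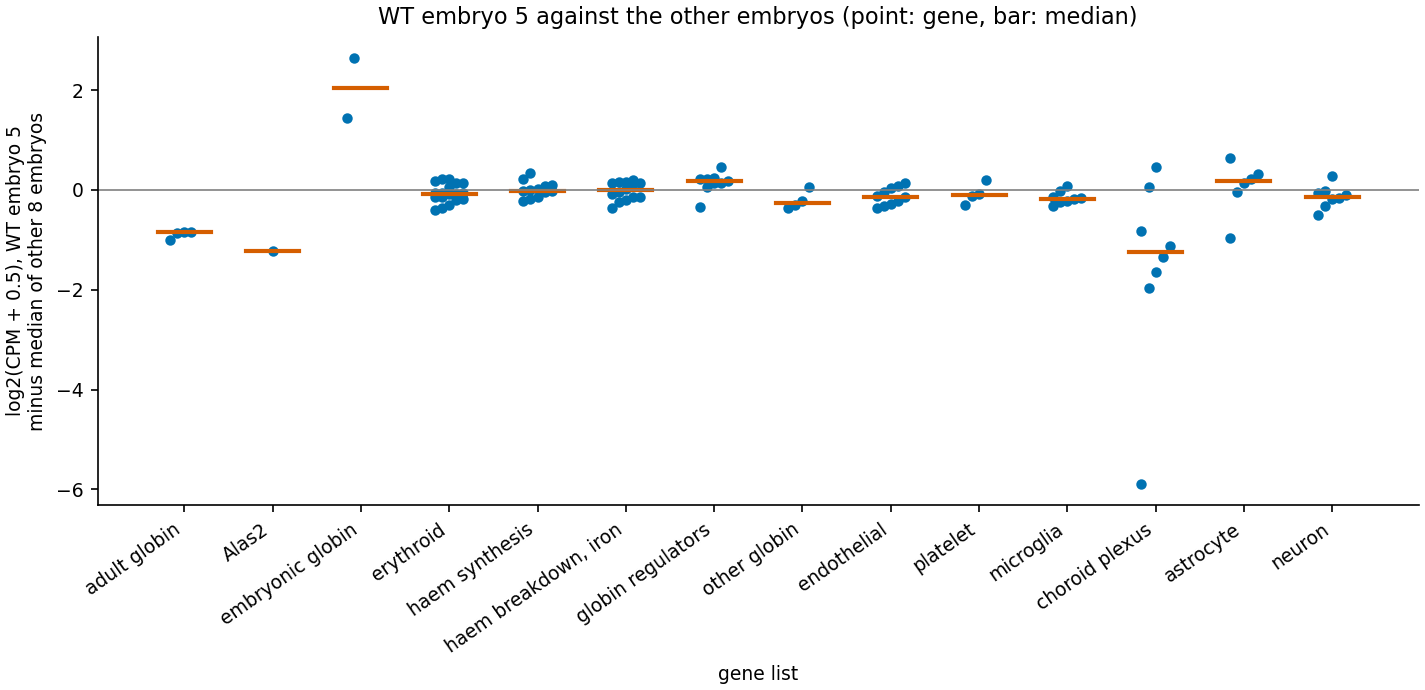
Deviation of WT embryo 5 from the median of the other 8 embryos on the scale of log2(CPM + 0.5), for each tested gene (points) of 14 gene lists, with the list median (bars). The adult globins and *Alas2* lie between −1.23 and −0.83 and *Hba-x* and *Hbb-y* at 1.44 and 2.64, and the choroid plexus genes have a median of −1.24, while the medians of the other lists lie between −0.27 and 0.18.

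The genes whose levels were most like the adult globins were found by Pearson's r, over 9 embryos, between log2 CPM and the mean log2 CPM of the 4 adult genes. *Alas2* came first, with r = 0.951, and r = 0.848 over the 8 embryos without WT embryo 5. Of the 17811 tested genes that are not members, 11 had r over 0.9. The 10 highest of them were *Zcchc17* (0.936), *Dnajb1* (0.929), *Rabac1* (0.929), *Ggct* (0.929), *Hexim1* (0.925), *Dram2* (0.925), *Gm5844* (0.91), *Coq3* (0.906), *Gm15857* (0.905) and *Dse* (0.905). Except for *Zcchc17* (0.94), r fell to between 0.694 and 0.85 in each of these without WT embryo 5. None of these 10 belongs to any of the lists above. The embryos share a library for all genes, so these values are descriptions only.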

How the data were processed

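Forebrain RNA from 5 WT and 4 HET embryos was captured by poly(A), made into TruSeq libraries and sequenced on a HiSeq 2000 instrument. The authors kept a single read of each pair, aligned it to GRCm38.p6 with STAR 2.7.9a and assigned it to GENCODE M25 genes with featureCounts. The deposited values are these read counts, 1 column per embryo for 55401 genes, left unnormalized by the authors. Strand, multi-mapping and read length settings are not given in the sources used here.

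Groups followed the genotype labels. Counts were filtered (filterByExpr, minimum count 10), scaled by TMM and compared between genotypes with edgeR 4.0.16 (glmQLFTest, no covariate, R 4.3.3), with Benjamini-Hochberg adjustment over 17818 genes and a threshold of 0.05. The fit was tested on simulated data. The common biological coefficient of variation was 16.8%. Shares carry Wilson intervals (scipy 1.17.1), which, since PCR copies are not independent molecules, cover counting error only. Exonic lengths and coding sequences came from GENCODE M21 on GRCm38, promoters from RefSeq.

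The members and gene lists were chosen with earlier results of these data known. Named were all members, *Npas3*, the 3 tested genes with the highest mean CPM of each list, any list gene past the threshold and the 10 genes most like the adult globins. Outside this rule, and named after their values were seen, are the genes marked so in the text and the list genes given as untested, at 0 or near the limit of reading. Alternatives were DESeq2 1.42.0, limma-voom (limma 3.58.1), other scalings and filters, a choroid plexus score as covariate, the embryos with *Ttr* under 100 CPM, counts per kilobase and leaving out each embryo. The near-identical adult copies were also summed before fitting, an alternative added after the data were seen.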

Additional observations from a re-analysis of the deposited data

Results flagged for a closer look

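A value was marked where the highest or the lowest embryo of a genotype lay far from the others of that genotype by Dixon's criterion at 95%. Of 110 groups examined, 12 were marked, where chance marks about 1 in 20 (5.5 groups), and 4 of the 12 concern WT embryo 5. These were *Hbb-y* at 12.1 CPM (1.15 to 2.1 CPM in the other WT embryos), *Hba-x* at 2.33 CPM (0.37 to 0.861 CPM), the summed embryonic globin level at 14.6 CPM (1.72 to 2.98 CPM) and the embryonic share of globin counts at 6.77% (0.313% to 0.884%). They share counts, since *Hbb-y* and *Hba-x* make up nearly all of the sum and the share. The adult globin genes and *Alas2* were also lowest in this embryo but did not meet the criterion.

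The targeted gene *Npas3* was at 34.1 CPM in HET embryo 7, against 27.8 to 28.2 CPM in the other HET embryos. HET embryo 24 had *Ttr* at 467 CPM (2.47 to 11.7 CPM in the other HET embryos) and the choroid plexus gene *Clic6* at 22 CPM (3.4 to 5.15 CPM). *Gp1ba*, a platelet receptor gene, was at 2.34 CPM in HET embryo 7 against 1.32 to 1.41 CPM. *Epb41* was at 290 CPM in HET embryo 5 against 244 to 250 CPM, and *Gm5844*, 1 of the genes most like the adult globins, at 0.541 CPM in the same embryo against 0.403 to 0.419 CPM. *Ireb2* was at 243 CPM in WT embryo 16 against 269 to 273 CPM, and *Csf1r*, a microglial receptor gene, at 19.9 CPM in WT embryo 15 against 16.2 to 17 CPM.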

How the results depend on the processing

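No member was called under any of 125 alternative values of the members' fold changes, and the lowest adjusted p was 0.738. Of all 302 alternative values, 276 kept their direction and their side of the threshold or stayed near the value with all embryos. For sums and shares, near meant within the pooled SD between embryos, which WT embryo 5 enlarged. The 276 thus include differences whose sign turned without that embryo. The embryonic share went from −1.13 to 0.108 percentage points, the log2 embryonic sum from −0.36 to 0.18 and the adult sum from 0.12 to −0.083. Counts of called genes that stayed at 0 are also included, so 276 is no measure of stability. Leaving out 1 embryo at a time, the log2 fold changes ranged from −0.046 to 0.30 for *Hba-a1*, −0.10 to 0.21 for *Hba-a2*, −0.13 to 0.20 for *Hbb-bs*, −0.11 to 0.23 for *Hbb-bt*, −0.16 to 0.19 for *Alas2*, −0.72 to 0.17 for *Hba-x* and −1.12 to 0.35 for *Hbb-y*. All 7 turned sign without WT embryo 5, *Hbb-bs* (−0.0078) and *Alas2* (−0.02) also without WT embryo 43, and *Hbb-bs* (−0.0045) and *Hbb-bt* (−0.04) without HET embryo 6. The log2 difference of summed adult globin was 0.12 with all embryos and 0.61 among those with *Ttr* under 100 CPM, where only WT embryos 5 and 43 remain. Over all genes, 5 were called higher and 20 lower in edgeR. DESeq2 called 21 and 64, the choroid plexus covariate left 2 higher, the embryos with low *Ttr* gave 3 and 12, and leaving out 1 embryo gave 0 to 5 higher and 13 to 20 lower. The causes were not tested. *Hba-x* was not tested at a minimum count of 50, and *Hbb-bh1*, at 1 to 19 counts, could be fitted only without that filter (−0.53, SE 0.55, adjusted p = 0.818 in edgeR). No paired analysis was possible because the litter of an embryo is not given.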
